A study of Mus musculus with 20 samples.

Results

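The 9 genes described here encode glutathione transferases of 6 classes in mouse cardiac fibroblasts. They were chosen by name, as rows of a table of gene counts, with earlier results of these libraries known, so their differences between groups are given as a description without p-values. The table held 55414 gene identifiers, and all 9 genes passed the filter on low counts that left 15624 genes for testing. The alpha class is represented by Gsta3 (ENSMUSG00000025934) and Gsta4 (ENSMUSG00000032348). The mu class is represented by Gstm1 (ENSMUSG00000058135), Gstm2 (ENSMUSG00000040562) and Gstm5 (ENSMUSG00000004032), which all lie on chromosome 3. The pi class gene was Gstp1 (ENSMUSG00000060803), the theta class gene Gstt1 (ENSMUSG00000001663) and the omega class gene Gsto1 (ENSMUSG00000025068). Mgst1 (ENSMUSG00000008540) encodes a microsomal enzyme from an unrelated family of membrane proteins.

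The cultures were primary cardiac fibroblasts at passage 2 with a loxP-flanked Hyal2 gene (Hyal2 fl/fl) in every group, although the genotype label reads wild type C57BL/6J. Every culture spent 24 h without serum and 5 h with an adenovirus and was collected after a further 48 h, the time of growth factor treatment, for which the protocol gives 20 ng/mL. Cre_TGFB cultures received a Cre virus, which deletes an exon of the hyaluronidase gene Hyal2, and then TGFB, a cytokine that turns fibroblasts into matrix-producing myofibroblasts. GFP_TGFB cultures received a GFP control virus and TGFB. Cre cultures received the Cre virus without TGFB, and Hyal2 cultures received a virus that overexpresses Hyal2 without TGFB. GFP cultures received the control virus without TGFB. The labels do not settle whether the 3 groups without TGFB received bFGF instead. Each group held 4 libraries, and the same 4 isolates recur in every group, isolates 1 and 2 from female mice and isolates 3 and 4 from male mice. Animal ages were not given in the sources used here.

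Glutathione transferases join the tripeptide glutathione to electrophilic compounds, among them drugs, pollutants and the aldehydes that form when lipids are oxidised. The conjugates are then exported from the cell and trimmed to mercapturates. Many of these genes are known targets of NRF2, a transcription factor that binds the antioxidant response element together with a small MAF protein when the cell meets oxidants or electrophiles. In the heart the enzymes are known for protection against products of lipid peroxidation.

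Promoter sequences are shown because they tell the members apart in a feature that did not enter their choice. RefSeq promoters (build GRCm38.p6, 250 bases before the start and 50 after) were found for 8 of the 9 genes. Both strands of the 250 bases before the start, but not the 50 after, were searched. The motifs were the antioxidant response element core TGACNNNGC and the AP-1 site TGANTCA. Within those 250 bases the first motif was found in 10.2% of 32851 promoters and the second in 6.75%. Capitals mark the match in each line, and every sequence is written 5′ to 3′ on the strand of the gene. The first 3 lines hold the antioxidant response element core and the last 2 the AP-1 site.
Gsta3, chr1:21240444-21240492, plus strand, 121 bases before the start: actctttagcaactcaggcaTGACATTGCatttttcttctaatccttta
Gstm5, chr3:107895792-107895840, plus strand, 42 bases before the start: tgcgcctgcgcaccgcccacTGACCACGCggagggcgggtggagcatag
Mgst1, chr6:138140451-138140499, plus strand, 56 bases before the start, match on the opposite strand: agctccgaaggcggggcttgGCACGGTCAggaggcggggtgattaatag
Gstm5, chr3:107895658-107895704, plus strand, 176 bases before the start: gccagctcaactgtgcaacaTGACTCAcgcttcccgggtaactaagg
Gstp1, chr19:4037960-4038006, minus strand, 74 bases before the start: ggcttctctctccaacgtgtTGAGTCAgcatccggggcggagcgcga
Gstm1, Gstm2, Gstt1 and Gsto1 had neither string of letters in the 250 bases searched, and Mgst1 had its match in the first of its 2 listed promoters. A match is a string of letters and was not tested as a binding site.

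The 20 libraries held 38.6 to 104.8 M counts. A count of 3 corresponded to 0.0286 to 0.0777 CPM, the count of a gene per M counts of its library, which covers counting error only, and every library stood above that level for each of the 9 genes. Hyal2 itself lay at 5.37 to 9.14 CPM in Cre_TGFB and at 33.4 to 41.1 CPM in GFP_TGFB. It lay at 7.62 to 13.5 CPM in Cre, 399 to 1420 CPM in Hyal2 and 36.6 to 44.5 CPM in GFP, so all libraries followed their labels. All 10 fibroblast markers had a mean over 1 CPM in every group. In GFP_TGFB against GFP edgeR called 7 of them lower and 1, Col1a1, higher, among them Pdgfra at 153 CPM in GFP_TGFB and 1020 CPM in GFP, and Tcf21 at 26.5 CPM in GFP_TGFB and 131 CPM in GFP. Dcn averaged 326 CPM in GFP_TGFB and 1340 CPM in GFP. Of the other cell types, cardiomyocyte markers summed to 1.22 to 3.45 CPM in GFP_TGFB and to 2.67 to 3.46 CPM in GFP. Tnnt2 averaged 1.47 CPM in GFP_TGFB and 1.83 CPM in GFP, and Tnni3 0.508 CPM and 1.08 CPM. The cardiomyocyte gene Myh6 was at 0 in every GFP, Hyal2, Cre and GFP_TGFB library. Leukocyte markers, 7 of 7 over 1 CPM in every group, summed to 108.1 to 263.5 CPM in GFP_TGFB and to 180.6 to 418.3 CPM in GFP. Endothelial markers, 3 of 6 over 1 CPM, summed to 10.5 to 16.1 CPM in GFP_TGFB and to 30.4 to 35.8 CPM in GFP. Pericyte and smooth muscle markers summed to 58.8 to 71.8 CPM in GFP_TGFB and to 4.64 to 7.13 CPM in GFP, mostly through Cspg4 with means of 64.6 CPM in GFP_TGFB and 2.55 CPM in GFP. Of these 5 markers Cspg4 and Myh11 were called higher and Kcnj8 lower, while Rgs5 averaged 0.803 CPM in GFP_TGFB and 1.64 CPM in GFP and Abcc9 0.166 CPM in GFP_TGFB and 0.267 CPM in GFP. The part of these marker shifts in the results below was not tested, and in bulk cultures fewer cells of a type and less RNA per cell cannot be told apart.

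The summed level of the 9 genes was lower with TGFB. It was 379 ± 25.2 CPM in Cre_TGFB, 385 ± 10.8 in GFP_TGFB, 613 ± 46.1 in Cre, 595 ± 62.3 in Hyal2 and 587 ± 26.9 in GFP (SD, n = 4 each). Levels of different genes were compared per length, as CPM per kilobase of exon. On that scale Gstm2 led in GFP with 109 ± 11.9, followed by Gstm1 with 61 ± 20.4 and Mgst1 with 55.8 ± 4.57 (SD, n = 4). Gsto1 led in GFP_TGFB with 89.4 ± 1.71, followed by Gstm2 with 56.7 ± 3.56 and Gstp1 with 34.6 ± 2.39. The 2 alpha genes were the lowest in GFP, with 2.25 ± 0.483 for Gsta3 and 1.3 ± 0.263 for Gsta4. Gsto1 therefore made up 41.48% of the summed per-length level in GFP_TGFB and 10.06% in GFP. Mgst1 made up 3.14% in GFP_TGFB and 16.05% in GFP, and Gstm1 made up 4.04% in GFP_TGFB and 17.52% in GFP. Gstm2 kept a large share in both groups, 26.28% in GFP_TGFB and 31.25% in GFP.

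**Figure D1:**
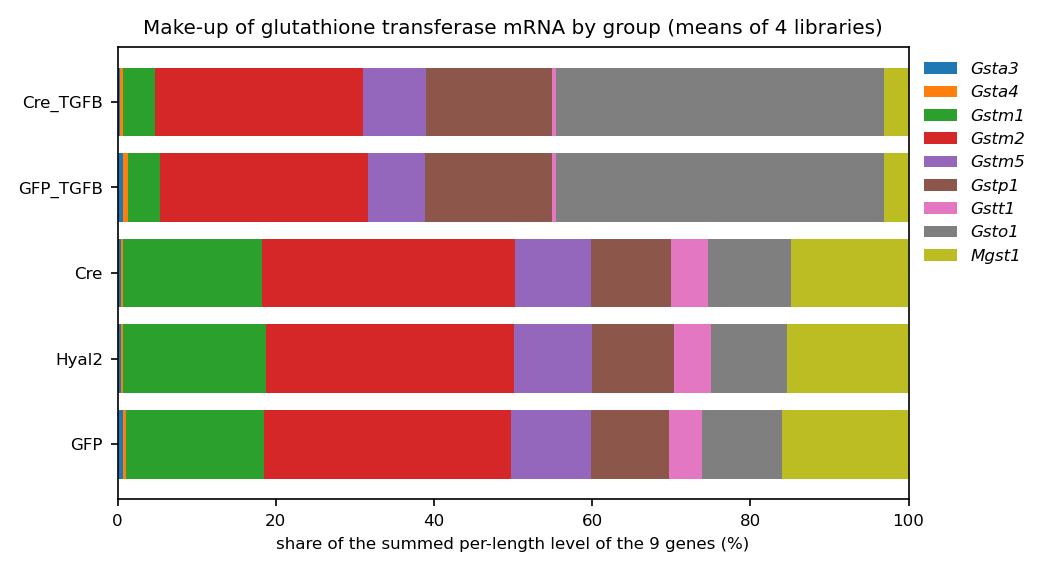
Each horizontal bar splits the summed per-length level (CPM per kilobase) of the 9 genes in a group into percent shares, from the means of 4 libraries. The share of Gsto1 was 41.5% in Cre_TGFB and 41.48% in GFP_TGFB, against 10.52% in Cre, 9.64% in Hyal2 and 10.06% in GFP.

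TGFB separated the mu class genes of the control virus cultures without overlap. Gstm1 encodes a major cytosolic conjugating enzyme. It had 12.1, 13, 12.1 and 14.1 CPM in GFP_TGFB isolates 1 to 4, against 72.5, 57.2, 122 and 108 CPM in GFP isolates 1 to 4. All GFP_TGFB libraries lay far below the lowest GFP library, and the GFP libraries spread more widely, with both male isolates above both female ones. The fitted log2 fold change was -2.80 (SE 0.28), a 6.99-fold lower level. Gstm2, known in humans as the muscle-type mu enzyme, had 103, 88, 95.4 and 94.6 CPM in GFP_TGFB isolates 1 to 4, against 180, 156, 203 and 191 CPM in GFP. Its log2 fold change was -0.94 (SE 0.11), a 1.92-fold lower level. Gstm5, a further mu class enzyme, had 17.1, 19.9, 21.8 and 21.7 CPM in GFP_TGFB isolates 1 to 4, against 42.7, 39.7, 49.7 and 47.5 CPM in GFP. Its log2 fold change was -1.16 (SE 0.09). The 3 genes thus differed in size of change, with Gstm1 farthest from 0. They are close copies of each other, and reads may be split between such copies. Counts summed over 8 mu class entries, including the pseudogene Gstm2-ps1, gave a log2 fold change of -1.26.

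**Figure D2:**
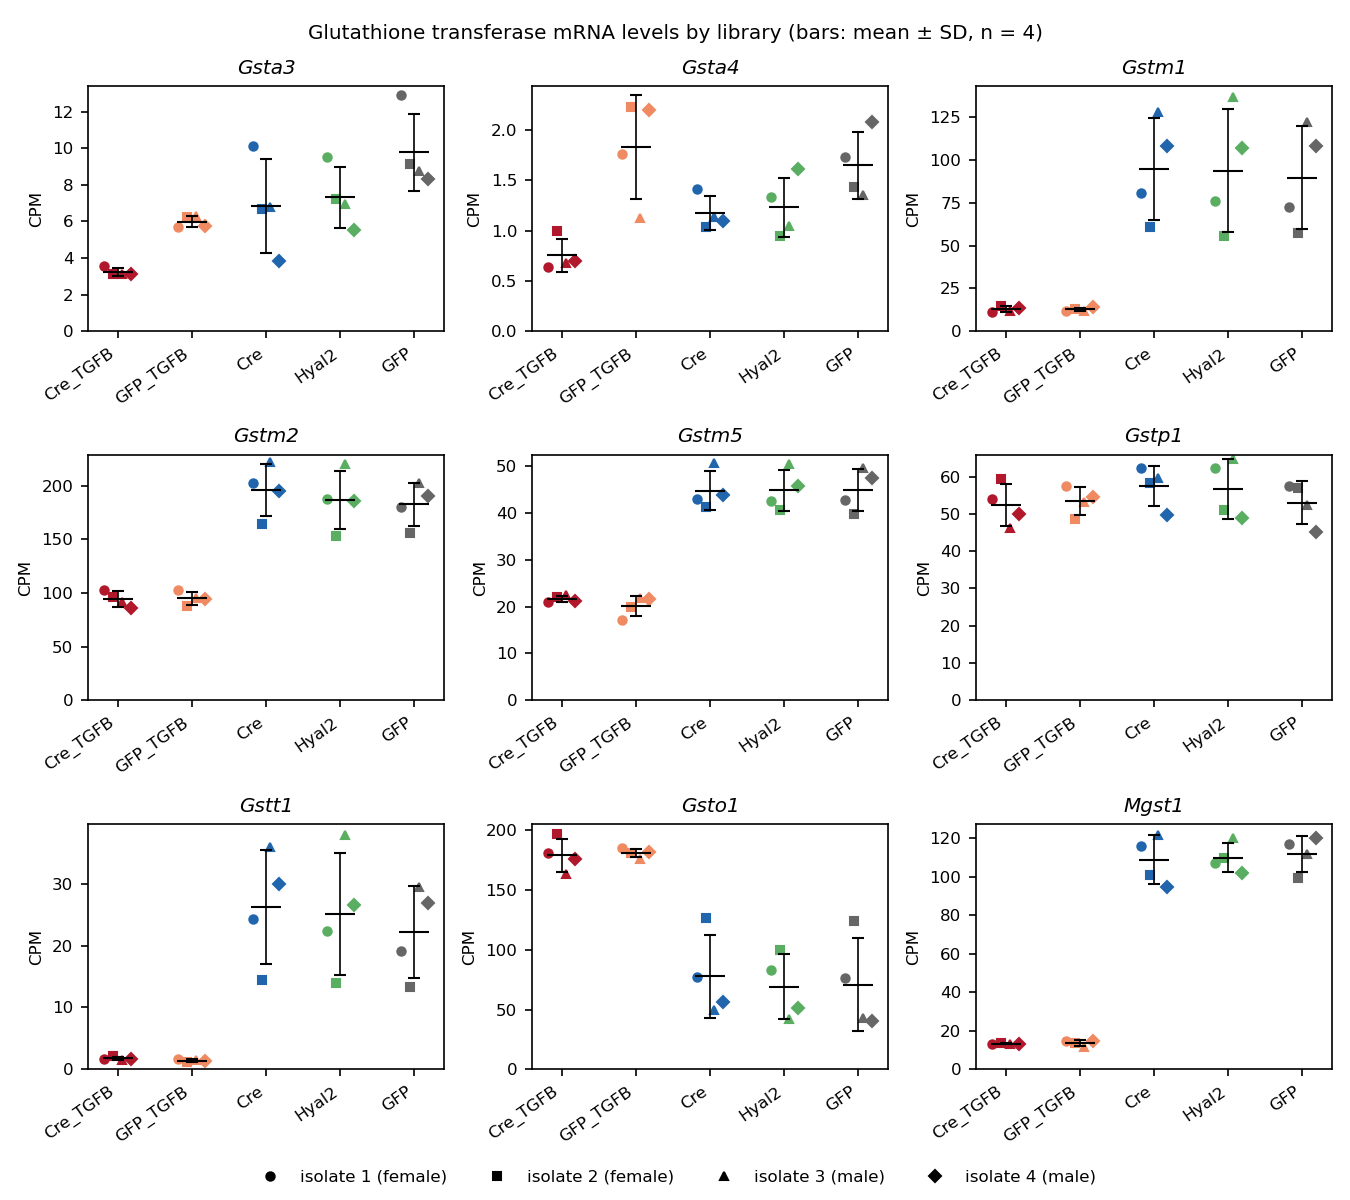
Each panel plots 1 gene, with CPM on the vertical axis from 0, the 5 groups on the horizontal axis, symbols for isolates and bars for mean ± SD (n = 4). Gstm1, Gstm2, Gstm5, Gstt1 and Mgst1 lay lower and Gsto1 higher in both TGFB groups than in any library without TGFB, while the Gstp1 groups overlapped.

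The theta class gene Gstt1 and the microsomal gene Mgst1 showed the largest log2 fold changes of the 9 genes with TGFB. Gstt1, whose enzyme acts on small halogenated compounds, had 1.65, 1.11, 1.56 and 1.27 CPM in GFP_TGFB isolates 1 to 4, against 19.1, 13.3, 29.5 and 26.8 CPM in GFP. The groups did not overlap, and the log2 fold change was -4.00 (SE 0.34), a 16-fold lower level that rests on 52 to 80 counts per GFP_TGFB library. As for Gstm1, Gstm2 and Gstm5, both male GFP libraries exceeded both female ones. The reverse held among the GFP libraries for Gsta3, Gstp1 and Gsto1, and the share of all genes with such splits was not counted. Mgst1 encodes a membrane-bound transferase and peroxidase of the endoplasmic reticulum and the outer mitochondrial membrane. It had 14.5, 13.5, 11.6 and 14.9 CPM in GFP_TGFB isolates 1 to 4, against 117, 99.6, 112 and 120 CPM in GFP. Its log2 fold change was -3.05 (SE 0.09), an 8.26-fold lower level, and the isolates differed little, from -3.27 to -2.88 in the paired values.

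Gsto1 was the only one of the 9 genes that was called higher with TGFB. Its omega class enzyme has a cysteine in the active site, reduces dehydroascorbate and removes glutathione from protein thiols. It had 185, 181, 176 and 182 CPM in GFP_TGFB isolates 1 to 4, against 76.3, 124, 42.6 and 40.8 CPM in GFP. The groups did not overlap, and the log2 fold change was 1.35 (SE 0.33), a 2.55-fold higher level. The GFP libraries were uneven, with a coefficient of variation of 54.8%, whereas the GFP_TGFB libraries lay close together, with 1.91%. The paired log2 differences were accordingly 1.27 and 0.55 in the female isolates and 2.05 and 2.16 in the male isolates. An antisense neighbour, Cfap43, overlaps Gsto1, and reads of the pair cannot be told apart because the strand setting of the counting is not given in the sources used here. The same holds for antisense neighbours of Gsta3 and Gstm5.

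The alpha class genes and Gstp1 moved less. Gsta3, whose mouse enzyme is known for detoxifying the epoxide of aflatoxin, had 5.69, 6.22, 6.3 and 5.74 CPM in GFP_TGFB isolates 1 to 4, against 12.9, 9.12, 8.78 and 8.31 CPM in GFP. Its groups did not overlap and its log2 fold change was -0.71 (SE 0.21). Gsta4, whose enzyme prefers hydroxynonenal and other aldehydes from oxidised lipids, had 1.76, 2.23, 1.12 and 2.2 CPM in GFP_TGFB, against 1.73, 1.43, 1.35 and 2.08 CPM in GFP. These groups overlapped, with a log2 fold change of 0.16 (SE 0.22). Counts summed over 4 alpha class entries, Gsta3 and Gsta4 among them, gave a log2 fold change of -0.54. Gstp1, a pi class enzyme also known to bind the stress kinase JNK, had 57.6, 48.7, 53.2 and 54.4 CPM in GFP_TGFB, against 57.6, 56.9, 52.4 and 45.2 CPM in GFP. Its groups overlapped and its log2 fold change was 0.01 (SE 0.10).

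In the comparison of GFP_TGFB with GFP, edgeR called 7 of the 9 genes at an adjusted p under 0.05, of which Gsto1 was higher and 6 were lower. The 2 that were not called were Gsta4 and Gstp1. Over all genes tested 55.3% were called, 26.6% higher and 28.6% lower. The groups of all 7 called genes did not overlap, which was so for 50.2% of all genes. The median log2 fold change was -0.94 over the 9 genes and -0.02 over all genes tested. With a replicate block the same 7 were called, beside 61.9% of all genes. Since the genes were chosen with these values known, nothing is read from the counts.

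Gstt1, Mgst1 and Gstm1 again led the genes that were lower with TGFB in cells with Hyal2 deleted. These cultures share no library with the control virus cultures but come from the same 4 isolates, so they are not an independent repeat. In Cre_TGFB against Cre the log2 fold changes were -3.89 (SE 0.33) for Gstt1, -3.03 (SE 0.09) for Mgst1 and -2.88 (SE 0.28) for Gstm1. Gstt1 lay at 1.56 to 2.08 CPM in Cre_TGFB and at 14.4 to 35.9 CPM in Cre, and Mgst1 at 12.9 to 13.6 CPM in Cre_TGFB and 95 to 122 CPM in Cre. Gstm1 lay at 11.5 to 14.9 CPM in Cre_TGFB and at 61.1 to 128 CPM in Cre. Gsto1 lay at 163 to 197 CPM in Cre_TGFB and at 49.7 to 127 CPM in Cre, with a log2 fold change of 1.20 (SE 0.33). Gstm2 and Gstm5 both had log2 fold changes of -1.05 (SE 0.11 and 0.09), and Gstp1 had -0.13 (SE 0.10) with overlapping groups. Here edgeR called 8 of the 9 genes, all but Gstp1, beside 56.5% of all genes. The groups of these 8 genes did not overlap, as was so for 51.2% of all genes. With a replicate block the same 8 were called, beside 63.6% of all genes. The added gene was Gsta4, with a log2 fold change of -0.64 (SE 0.23). Its call was lost, leaving 7 genes, without isolate 1, 3 or 4, and likewise without Cre replicate 1 or without Cre_TGFB replicate 1, 3 or 4.

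**Figure D3:**
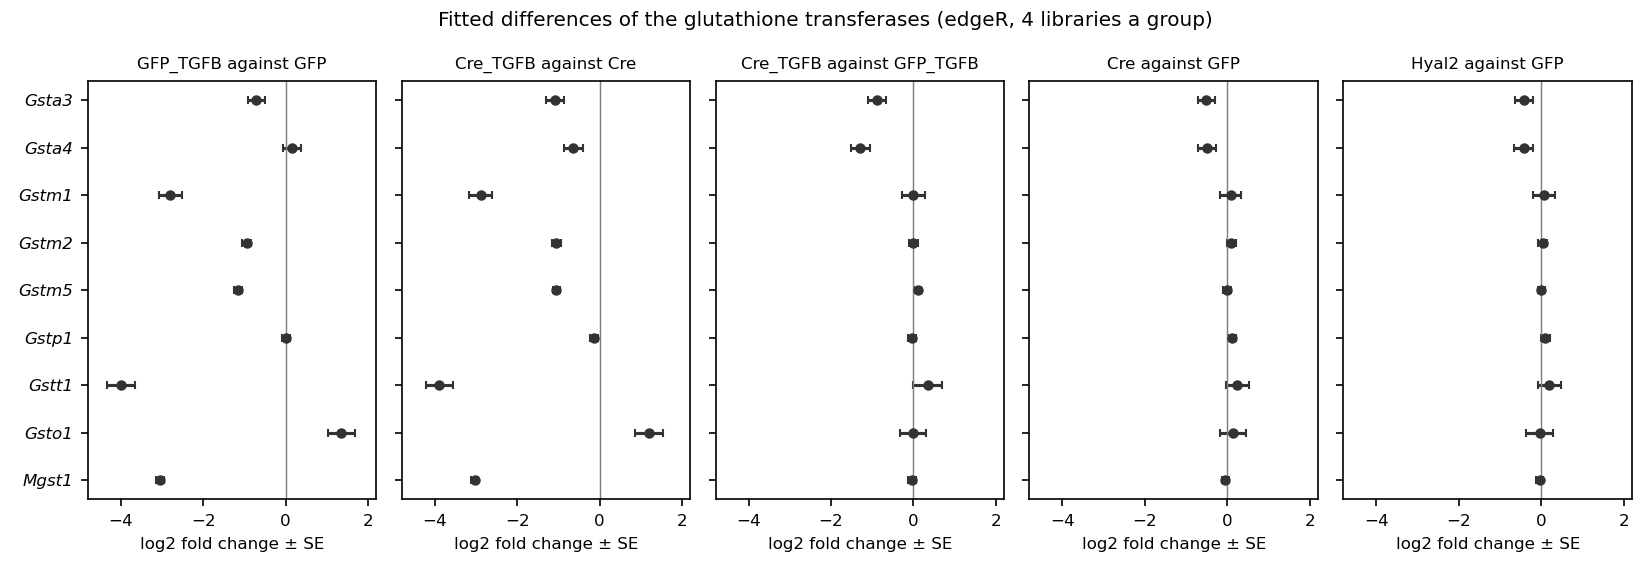
Points give edgeR log2 fold changes of the 9 genes (rows) in 5 comparisons (panels), and bars give ± 1 SE from 4 libraries a group. Gstt1, Mgst1 and Gstm1 lay farthest below 0 in both TGFB comparisons, and Gsta3 and Gsta4 lay below 0 in each comparison of a Hyal2-altering virus with the control virus.

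The comparison of Cre_TGFB with GFP_TGFB sets cultures with Hyal2 deleted by the Cre virus against control virus cultures, all under TGFB. There the 2 alpha class genes stood apart from the other 7. Loss of Hyal2 cannot be told apart from other effects of the Cre virus, since no group received it without the loxP-flanked gene. Gsta3 had 3.56, 3.12, 3.13 and 3.11 CPM in Cre_TGFB isolates 1 to 4, against 5.69, 6.22, 6.3 and 5.74 CPM in GFP_TGFB. The groups did not overlap, and the log2 fold change was -0.89 (SE 0.22), a 1.85-fold lower level. Gsta4 had 0.642, 0.998, 0.679 and 0.7 CPM in Cre_TGFB, against 1.76, 2.23, 1.12 and 2.2 CPM in GFP_TGFB. Its groups did not overlap either, with a log2 fold change of -1.29 (SE 0.23), a 2.45-fold lower level. The counts behind Gsta4 were small, 27 to 50 per Cre_TGFB library and 44 to 161 per GFP_TGFB library. Reads may be split between gene copies here too, and counts summed over 4 alpha class entries gave a log2 fold change of -0.99. Both genes were lower in 4 of 4 isolates, with paired log2 differences of -1 to -0.67 for Gsta3 and -1.60 to -0.70 for Gsta4. Among all genes 6.91% were lower in 4 of 4 isolates, and 0.851% were lower without overlap between the groups. Nothing is read from these shares, because the genes were chosen with the values known.

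**Figure D4:**
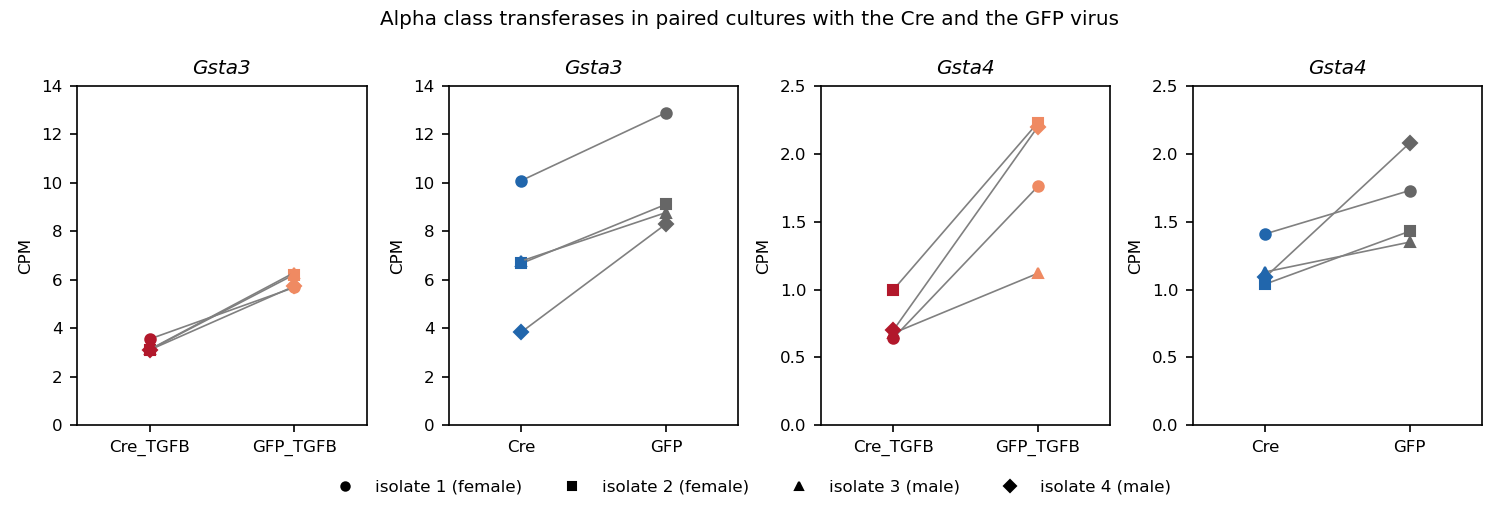
CPM of Gsta3 and Gsta4 (vertical axes from 0) are plotted for each isolate with the Cre virus and the GFP virus, with lines joining the cultures of an isolate. All lines run upward to the GFP virus, and with TGFB the highest Cre_TGFB library (3.56 CPM for Gsta3, 0.998 CPM for Gsta4) lay below the lowest GFP_TGFB library (5.69 and 1.12 CPM).

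The other 7 genes lay within -0.04 to 0.35 on the log2 scale in this comparison. Gstm1 averaged 12.9 ± 1.61 CPM in Cre_TGFB and 12.8 ± 0.932 in GFP_TGFB (SD, n = 4 each), and Gsto1 averaged 179 ± 14.1 CPM in Cre_TGFB and 181 ± 3.46 in GFP_TGFB. Gstt1, at 1.77 ± 0.221 CPM in Cre_TGFB and 1.4 ± 0.252 in GFP_TGFB, had the log2 fold change of 0.35 (SE 0.35), with overlapping groups. EdgeR called 0 of the 9 genes beside 0.00640% of all genes, and 2 had an unadjusted p under 0.05, beside 223 of all 15624 genes. DESeq2 called 1, Gsta4, of 3 genes in all, and limma-voom called 0 of the 9 and 1 gene in all. A fit restricted to these 2 groups called Gsta3, of 2 genes in all. Without GFP_TGFB replicate 3, the lowest library of that group for Gsta4, edgeR called Gsta4, of 3 genes in all. Leukocyte markers summed to 101 to 256 CPM in Cre_TGFB and to 108.1 to 263.5 CPM in GFP_TGFB, so the marker sums overlapped.

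Without TGFB the alpha genes again lay lower with the Cre virus, but the groups overlapped. Gsta3 had 10.1, 6.68, 6.78 and 3.85 CPM in Cre isolates 1 to 4, against 12.9, 9.12, 8.78 and 8.31 CPM in GFP. The log2 fold change was -0.51 (SE 0.21), and isolate 4 differed most, by -1.1 against -0.45 to -0.35 in the other isolates. Gsta4 had 1.41, 1.04, 1.13 and 1.09 CPM in Cre, against 1.73, 1.43, 1.35 and 2.08 CPM in GFP, with a log2 fold change of -0.49 (SE 0.22). Each gene was lower in 4 of 4 isolates, as were 13.2% of all genes. The other 7 genes lay between -0.05 and 0.24, and Gstm1, Gstm2, Gstp1, Gstt1 and Gsto1 were higher in 4 of 4 isolates, as were 15.9% of all genes. Their groups overlapped. EdgeR called 0 of the 9 genes beside 0.00640% of all genes, with 2 at an unadjusted p under 0.05, beside 711 of all 15624 genes. DESeq2 also called 0 of the 9, of 37 genes in all, and limma-voom 0, of 0 in all. EdgeR with a replicate block called 0 of the 9 beside 0.269% of all genes.

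The virus that overexpresses Hyal2 gave values of the same sign for the alpha genes as the Cre virus that deletes it. Gsta3 had 9.53, 7.25, 6.94 and 5.52 CPM in Hyal2 isolates 1 to 4, against the same 4 GFP libraries, with a log2 fold change of -0.42 (SE 0.21). Gsta4 had 1.33, 0.946, 1.05 and 1.61 CPM in Hyal2, also with a log2 fold change of -0.42 (SE 0.23). Both were lower than GFP in 4 of 4 isolates, as were 6.89% of all genes, and the groups overlapped. The comparisons of Cre, Hyal2 and GFP_TGFB with GFP share the GFP libraries, so their values for a gene are not independent. EdgeR called 0 of the 9 genes beside 0.00640% of all genes, with 0 at an unadjusted p under 0.05, beside 331 of all 15624 genes. DESeq2 and limma-voom called 0 of the 9 and 1 gene each in all.

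The interaction asks whether the Cre effect differs with TGFB. For Gsta4 the difference of the 2 effects was -0.80 (SE 0.32) on the log2 scale, with paired values of -1.12 to -0.45. For Gsta3 it was -0.38 (SE 0.30), with paired values of -0.63 to 0.23. EdgeR called 0 of the 9 genes and 0 of all genes, with 1 of the 9 and 397 of all 15624 genes at an unadjusted p under 0.05, and DESeq2 and limma-voom called 0 of all genes. For the other 7 genes the interaction lay between -0.15 and 0.11.

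Across the 5 groups the order of the means fell into different patterns. Mgst1, Gstm1, Gstm2, Gstm5 and Gstt1 formed an upper set of 3 groups without TGFB, whose neighbours overlapped, and a lower set of 2 groups with TGFB, which overlapped too. Gsto1 had the reverse order, with GFP_TGFB at 181 CPM and Cre_TGFB at 179 CPM overlapping above the other 3. In Gsta3 the order was GFP, Hyal2, Cre, GFP_TGFB and Cre_TGFB, and only the last neighbours, Cre_TGFB and GFP_TGFB, did not overlap. In Gsta4 the order was GFP_TGFB, GFP, Hyal2, Cre and Cre_TGFB, and again only the last neighbours, Cre_TGFB and Cre, did not overlap. The means of Gstp1 lay between 52.3 and 57.4 CPM, and all neighbours overlapped.

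The sex of the isolates was not part of the choice of genes and was tested on the means of each isolate over its 5 groups, with 2 female and 2 male isolates. Sex cannot be told apart from other differences between the isolates. Gsto1 had geometric means of 110 and 141 CPM in the female isolates and 76.2 and 82.4 CPM in the male isolates, a log2 difference of 0.66 (SE 0.15, limma adjusted p = 0.134). Gstm1 had 36.2 and 32.8 CPM in the female isolates and 49.8 and 47.4 CPM in the male isolates, a log2 difference of -0.50 (SE 0.08, limma adjusted p = 0.113). Gstt1 had a log2 difference of -0.47 (SE 0.19, limma adjusted p = 0.236), and the other 6 genes lay between -0.17 and 0.31. Limma called 0 of the 9 genes beside 0.0704% of all genes. An unadjusted p under 0.05 was found for 2 of the 9 and for 3832 of all 15624 genes. Over the 3 groups without TGFB the differences were 1.03 for Gsto1 (limma adjusted p = 0.136) and -0.83 for Gstm1 (limma adjusted p = 0.141). In those 3 groups all 6 female libraries of Gsto1 lay at 76.3 to 127 CPM, and all 6 male libraries at 40.8 to 56.7 CPM. These libraries come from only 2 isolates of each sex, so they are not 6 independent replicates. The share of all genes separated in this way was not counted.

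Across the 20 libraries the 9 genes fell into correlated and separate members, given here as a description over libraries that share isolates and treatment. Gstm1, Gstm2, Gstm5, Gstt1 and Mgst1 correlated with each other at Pearson's r of 0.97 to 0.99 in log2 CPM. Gsto1 ran against these 5 genes, at r of -0.94 to -0.86. Gsta3 and Gsta4 correlated at 0.60, and Gstp1 at 0.37 or less with any other member. Of 9894 genes searched, the gene most alike to Gstt1 was Adamts2, a procollagen protease (r = 1.00 after rounding). For Mgst1 it was Mmp3, the matrix protease stromelysin (r = 1.00 after rounding), and for Gstm1 the microfibril gene Mfap2 (r = 1.00 after rounding). Gstm2 was most like the chemerin gene Rarres2 and Gstm5 most like the growth factor receptor gene Fgfr2, each at r = 0.99. Gsto1 was most like Tagln2, an actin-binding protein gene, at r = 0.99. Gstp1 was most like the mitochondrial fission gene Fis1 at r = 0.92. Gsta3 was most like Plek, which encodes pleckstrin of blood cells, at r = 0.84, and Gsta4 was most like the quinone reductase gene Nqo1 at r = 0.56.

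Of 20 other glutathione transferase genes listed, 17 had an identifier and 12 were tested. This list and the lists below were also chosen with earlier results known, and most genes named from them have the smallest p. Their p-values are therefore a description. With TGFB 9 of the 12 fell in GFP_TGFB against GFP and 0 rose, beside 28.6% of all genes called lower and 26.6% higher. The median log2 fold change was -0.68, beside -0.02 over all genes. The same 9 fell in Cre_TGFB against Cre, beside 4538 of all 15624 genes called lower. Gstt3, a theta class relative of Gstt1, was at 6.02 ± 0.496 CPM in GFP_TGFB and 14.2 ± 2.63 CPM in GFP (SD, n = 4 each), a log2 fold change of -1.24 (edgeR adjusted p = 3.76e-06). Gstk1, the kappa class gene of mitochondria and peroxisomes, was at 2.28 ± 0.294 CPM in GFP_TGFB and 5.71 ± 1.19 CPM in GFP (log2 fold change -1.32, edgeR adjusted p = 5.53e-06). Gstm4, a mu class gene, was at 13.3 ± 1.28 CPM in GFP_TGFB and 17.2 ± 1.43 CPM in GFP (log2 fold change -0.37, edgeR adjusted p = 0.00523). The other 6 that fell were Gstm6, Gstm7, Gstt2, Hpgds, Mgst2 and Mgst3. Some of these were low, such as Gstm6 at 0.0367 CPM in GFP_TGFB and 0.24 CPM in GFP. Hpgds was at 0.447 CPM in GFP_TGFB and 0.953 CPM in GFP. With libraries left out, 6 to 9 of the 12 were called. Gstp2, Gsto2 and Gstz1 were not called, with log2 fold changes of 0.25, -0.41 and 0.13. In the comparisons of Cre_TGFB with GFP_TGFB, Cre with GFP and Hyal2 with GFP, edgeR called 0 of the 12, with 1, 0 and 1 at an unadjusted p under 0.05, and DESeq2 and limma-voom called 0.

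Genes that make and turn over glutathione changed in both directions with TGFB, 7 higher and 7 lower of 17 tested in GFP_TGFB against GFP. Over all genes 26.6% were called higher and 28.6% lower, and the median log2 fold change was -0.01 for the list and -0.02 for all genes. Cth, which makes cysteine from cystathionine, was at 17 ± 7.92 CPM in GFP_TGFB and 1.86 ± 0.51 CPM in GFP (log2 fold change 3.17, edgeR adjusted p = 1.85e-07). Gss, the glutathione synthetase gene, was at 50.6 ± 6.13 CPM in GFP_TGFB and 22.4 ± 5.04 CPM in GFP (log2 fold change 1.17, edgeR adjusted p = 3.88e-06). Chac1, which encodes an enzyme that degrades glutathione, also rose (log2 fold change 1.80, edgeR adjusted p = 9.82e-08). The genes that fell included enzymes of extracellular and intracellular glutathione breakdown. Dpep1, a dipeptidase of the cell surface, was at 45.9 ± 9.25 CPM in GFP_TGFB and 226 ± 44.5 CPM in GFP (log2 fold change -2.30, edgeR adjusted p = 5.7e-09). Oplah, the oxoprolinase gene, fell by 2.28 and Anpep, an aminopeptidase gene, by 1.59 on the log2 scale (edgeR adjusted p = 4.39e-09 and 2.47e-05).

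Of 14 tested genes for glutathione reduction and peroxidases, 3 rose and 6 fell in GFP_TGFB against GFP, beside 55.3% of all genes called in either direction. The glutaredoxin genes Glrx2, Glrx3 and Glrx5 rose by 0.40, 0.45 and 0.59 on the log2 scale (edgeR adjusted p = 0.000144, 0.000178 and 0.00041). Glrx fell by 0.89, Gsr, the glutathione reductase gene, fell by 0.47, and G6pdx, which supplies NADPH, fell by 0.59 on the log2 scale (edgeR adjusted p = 2.11e-06, 8.05e-06 and 2.14e-07). Of 11 tested genes for conjugate export and mercapturates, 2 rose and 3 fell, a share below the 55.3% of all genes. With a replicate block 7 of the 11 were called, a share above the 61.9% of all genes. The exporter gene Abcc1 rose by 0.30 and the aminoacylase gene Acy1 by 0.45 on the log2 scale (edgeR adjusted p = 0.00173 and 0.000117). The exporter genes Abcc3 and Abcc5 fell by 0.69 and 0.50, and Acy3, which deacetylates mercapturates, fell by 0.42 (edgeR adjusted p = 0.000663, 0.0014 and 0.00732).

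Of 22 tested NRF2 pathway genes, 8 rose and 3 fell in GFP_TGFB against GFP, a share called below the 55.3% of all genes. Of all genes 26.6% were called higher and 28.6% lower. With a replicate block 15 of the 22 were called, a share above the 61.9% of all genes. The median log2 fold change was 0.28, beside -0.02 over all genes. Mafg, a small MAF partner of NRF2, rose by 1.14 and the heme oxygenase gene Hmox1 by 1.01 on the log2 scale (edgeR adjusted p = 1.09e-09 and 1.35e-07). The autophagy receptor gene Sqstm1 rose by 1.02 (edgeR adjusted p = 3.77e-06). The ferritin heavy chain gene Fth1 fell by 1.40, the biliverdin reductase gene Blvrb by 0.56 and Keap1, whose product restrains NRF2, by 0.32 (edgeR adjusted p = 5.68e-11, 0.000577 and 0.00103). Nqo1, a standard NRF2 target and the gene most like Gsta4, had a log2 fold change of 0.12 (edgeR adjusted p = 0.394). In Cre_TGFB against GFP_TGFB edgeR called 0 of the 22, with 2 at an unadjusted p under 0.05, and DESeq2 and limma-voom called 0. Of the 22, 16 lay below 0 there, beside 7748 of all 15624 genes, and their median log2 fold change was -0.07, beside a median of 0 over all genes. Nqo1 had a log2 fold change of -0.36 in that comparison (edgeR adjusted p = 1).

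**Figure D5:**
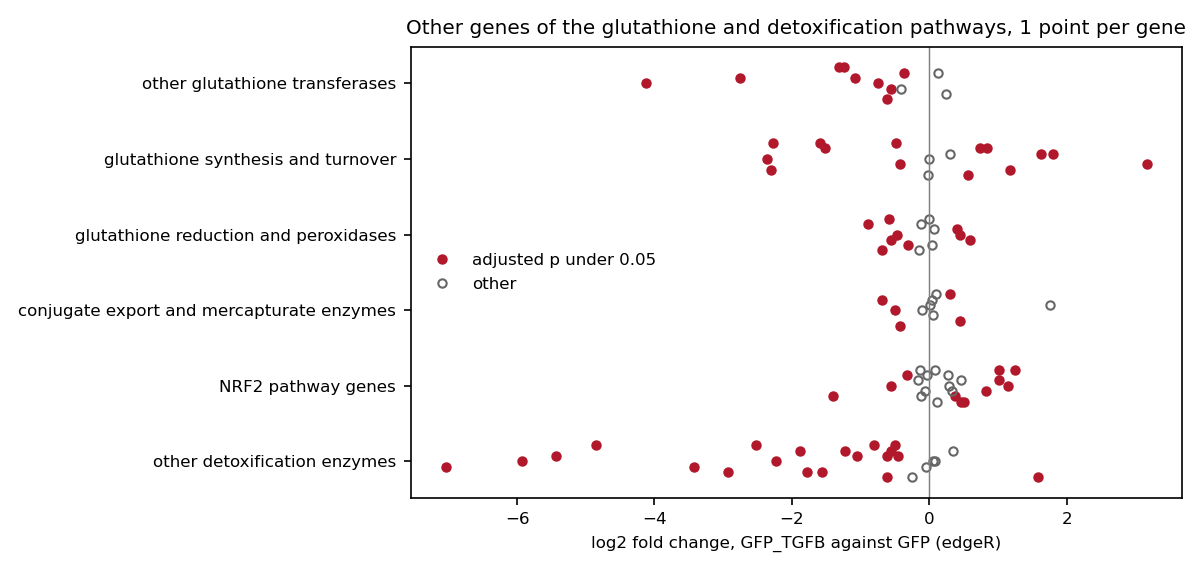
Each point is 1 gene of 6 lists (rows), placed by its log2 fold change in GFP_TGFB against GFP, and filled points had an edgeR adjusted p under 0.05. The other glutathione transferases had 9 filled points below 0 and 0 above, and NRF2 pathway genes had 8 filled points above 0 and 3 below, beside 26.6% of all genes called higher and 28.6% lower.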

How the data were processed

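RNA-seq libraries of 20 cultures were made from DNase-treated Trizol RNA with a NEBNext Ultra II kit, per the labels' protocols. The authors deposited unnormalised read counts for each Ensembl gene. FastQC 0.10.1, HTSeq 0.10.0 and the build GRCm39 (mm39) are named in the submitters' processing notes. Aligner, annotation release and strand setting: not given in the sources used here. Symbols came from a GRCm38 table used for names (52081 of 55414 identifiers matched), and exon lengths from a GRCm38 annotation.

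The members and all gene lists were chosen with earlier results of these data known. Counts were analysed in R 4.3.3 with edgeR 4.0.16: 1 robust quasi-likelihood fit of all 20 libraries, TMM factors, filterByExpr (minimum count 10, minimum total 15), and Benjamini-Hochberg adjustment over 15624 genes, called under 0.05. Standard errors equal |log2 fold change| over the square root of F. CPM are TMM-normalised, except the floor of 3 counts. The sex comparison used limma 3.58.1 on isolate means of log2 CPM (prior count 2). Named genes are the members, Hyal2, up to 3 called genes a direction of each list with the smallest p (and a higher group averaging 5 CPM or more), and the gene most correlated with each member. A gene that falls outside this rule is named where a count of genes needed it.

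Library names share an isolate prefix for each replicate number. Deviations from the group means correlated at 0.11 to 0.71 in 40 same-numbered pairs and at -0.61 to 0.44 in 120 others, so numbers pair the samples. Alternatives were the replicate block, DESeq2 1.42.0, limma-voom, RLE factors, no filter, smaller fits, summed gene copies and leaving out libraries.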

Additional observations from a re-analysis of the deposited data

Results flagged for a closer look

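In 45 sets of 4 libraries, 1 for each gene and group, the highest or lowest library was set against the other 3, and chance marks about 1 in 20 such sets. Gsta3 in Cre_TGFB had 3.56 CPM in replicate 1, while the other 3 libraries lay between 3.11 and 3.13 CPM, so the distance stands out because those 3 are so close. Gsta4 in Cre_TGFB had 0.998 CPM in replicate 2, while the other 3 lay between 0.642 and 0.7 CPM. Both libraries still lay below every GFP_TGFB library of the gene.

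Gstm2 in Cre_TGFB against GFP_TGFB was slightly higher in both female isolates, with a mean log2 difference of 0.07, and slightly lower in both male isolates, with a mean of -0.095. The 2 sexes differed by 0.16 on the log2 scale, and this difference was not tested.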

How the results depend on the processing

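With the replicate block, which uses the pairing of the isolates, edgeR called the same 7 members in GFP_TGFB against GFP and the same 8 in Cre_TGFB against Cre, and 0 in the other comparisons. The block changed no call of a member, although over all genes it called 42 in Cre against GFP, where the fit without it called 1. In Cre_TGFB against GFP_TGFB 1 member was called by DESeq2 and 1 by a fit of only those groups, and leaving out a replicate gave 0 to 1; the cause was not tested. Of 1080 alternative log2 fold changes of the members, 0 reversed a called direction and 55 moved by more than the spread between replicates, 10 of them where gene copies were summed. The other 45 came mostly from leaving out libraries. In the sex comparison limma called 11 genes in all, 16 with a prior count of 0.5, 6 over the groups without TGFB and 6 to 7 without an isolate, with 0 members in each. The number of other transferases called in GFP_TGFB against GFP was 6 to 9 when a replicate was left out, beside 9. Depth limits Gsta4 most, with 27 counts in its lowest library.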

Other observations

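Enzymes of other detoxification routes, which the transferases accompany in xenobiotic metabolism, were mostly lower with TGFB. Of 25 tested genes, 19 fell and 1 rose in GFP_TGFB against GFP, beside 28.6% of all genes called lower and 26.6% higher. The median log2 fold change was -1.05, beside -0.02 over all genes tested. Cyp1b1, a cytochrome P450 gene, was at 92.6 ± 15.7 CPM in GFP_TGFB and 532 ± 82.4 CPM in GFP (SD, n = 4 each), a log2 fold change of -2.52 (edgeR adjusted p = 9.05e-12). Aldh1a1, a retinal dehydrogenase gene, was at 19.9 ± 1.56 CPM in GFP_TGFB and 151 ± 35.8 CPM in GFP (log2 fold change -2.93, edgeR adjusted p = 4.77e-11). The carboxylesterase gene Ces2g was at 11.4 ± 1.31 CPM in GFP_TGFB and 39.2 ± 7.57 CPM in GFP (log2 fold change -1.78, edgeR adjusted p = 2.95e-09). Aldh1a3, a related retinal dehydrogenase gene, was the 1 that rose, at 5.68 ± 0.607 CPM in GFP_TGFB and 1.88 ± 0.313 CPM in GFP (log2 fold change 1.59, edgeR adjusted p = 1.3e-08). In Cre_TGFB against Cre the counts were again 19 lower and 1 higher, beside 4538 lower and 4294 higher of all 15624 genes.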
